A study of Mus musculus with 14 samples.

Results

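Gene-desert peaks are here stretches of open chromatin far from the gene starts used to annotate the peak list. They were taken from an ATAC-seq peak list of mouse blood progenitors as the autosomal peaks whose listed distance to the nearest transcription start site (TSS) was at least 250 kb and whose detailed annotation named no repeat element. Of the 92842 peaks of the list, 2117 met this rule (2.28%, exact 95% interval 2.19 to 2.38). The position and the annotation alone chose them, and no level of accessibility entered the rule. Peaks whose annotation names no repeat are called repeat-free below, although part of such a peak can still hold repeat sequence.

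ATAC-seq marks open DNA by letting the Tn5 transposase insert sequencing adapters into it. The libraries came from wild-type C57BL/6 mice aged 8 to 12 weeks, with 2 libraries for each of 7 FACS-sorted populations. Bone marrow gave 6 of them, MPP (multipotent), CLP (common lymphoid) and CMP (common myeloid) progenitors, GMP and MEP, which are progenitors of the granulocyte and macrophage and of the megakaryocyte and erythroid lines, and ProB cells, which are B cell progenitors. ProT cells, which are T cell progenitors, came from thymus. Whether both libraries of a population stem from different animals is not stated. The labels give no genetic change and no drug treatment. The deposited list joins all populations, its peak score is 0 throughout, and it says neither in which population a peak was open nor how deeply a library was sequenced. The groups below are therefore groups of peaks, with no replicates, and the intervals cover counting error only. Neighbouring peaks are not independent of each other, so no test was run between the gene-desert peaks and other peaks, and the shares are given side by side as a description.

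Gene deserts are long stretches of the genome with no or very few genes. Some hold distal enhancers, which act on a promoter far away along the chromosome through looping, and deserts often flank genes for transcription factors of development. In blood, distal enhancers are known for Myc, Bcl11b, Gata3 and other regulators. Very long genes, many of which encode neuronal adhesion proteins, give another way to be far from a TSS, since their inner introns can lie very far from the start.

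Since the list knows only the gene starts of its own annotation, the first question was which of these peaks coincide with starts of other genes. RefSeq promoter windows of GRCm38.p6, each from 250 bases before to 50 bases after a gene start, were laid over the peaks. Of the 2031 gene-desert peaks on chromosomes with such windows, 29 (1.43%, exact 95% interval 0.958 to 2.04) overlapped a window, against 10520 of 71881 nearer repeat-free autosomal peaks (14.6%, 14.4 to 14.9). The distance rule fixes the direction of this contrast, since it removes every peak at a start of the list's own annotation. In 26 of the 29 the start itself lay inside the peak. The windows belonged to 29 genes, 7 of which have a curated RefSeq transcript, and 27 of the 29 peaks overlapped windows of long noncoding RNA (lncRNA) genes. The exceptions were Lsamp, a neuronal adhesion gene, and Gm14410, a protein-coding gene.

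The part of the window that lies inside the peak is shown for 4 of these lncRNA genes, chosen after their values were seen because they stand near genes of blood cells or in a CpG island. Gm19585 starts in a peak on chromosome 17 (52149079 to 52149577) that is 316 kb from Satb1, which encodes a chromatin organiser of thymocytes. Gm30728 starts in a peak on chromosome 2 (45434100 to 45434598) that is 317 kb from Zeb2, a zinc-finger repressor used in blood stem cell and myeloid development. Gm30392 starts in a peak on chromosome 14 (53961504 to 53962002) inside the T cell receptor alpha and delta array. Gm13652 starts in a peak on chromosome 2 (75137745 to 75138243) that the list annotates as a CpG island. Each sequence runs 5′ to 3′ on the strand of the lncRNA gene. Capitals mark matches on either strand to short cores of blood transcription factor motifs, namely the GATA core AGATAA, the RUNX core TGTGGT, the ETS core GGAAGT, the CTCF core AGGGGGC, the E-box core CAGCTG, the AP-1 core TGANTCA and the C/EBP core TTGCNNAA. No match overlaps another.
Gm19585, chr17:52149079-52149338, plus strand: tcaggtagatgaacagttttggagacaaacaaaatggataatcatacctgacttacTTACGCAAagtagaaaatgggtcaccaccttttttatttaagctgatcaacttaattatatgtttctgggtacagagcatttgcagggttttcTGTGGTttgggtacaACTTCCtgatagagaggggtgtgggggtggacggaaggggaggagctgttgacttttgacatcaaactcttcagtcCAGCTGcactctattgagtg
Gm30728, chr2:45434146-45434445, minus strand: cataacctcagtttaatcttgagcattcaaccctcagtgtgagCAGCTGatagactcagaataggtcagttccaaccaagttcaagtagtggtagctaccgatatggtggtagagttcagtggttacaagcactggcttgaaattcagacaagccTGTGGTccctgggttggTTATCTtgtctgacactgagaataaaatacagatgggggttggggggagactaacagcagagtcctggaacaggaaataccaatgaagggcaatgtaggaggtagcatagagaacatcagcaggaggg
Gm30392, chr14:53961603-53961902, minus strand: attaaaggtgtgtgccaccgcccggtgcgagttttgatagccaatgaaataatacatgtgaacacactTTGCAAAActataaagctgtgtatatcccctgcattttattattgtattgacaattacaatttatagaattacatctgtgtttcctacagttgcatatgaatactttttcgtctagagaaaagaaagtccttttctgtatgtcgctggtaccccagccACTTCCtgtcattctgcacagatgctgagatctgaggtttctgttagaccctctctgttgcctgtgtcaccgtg
Gm13652, chr2:75137926-75138225, minus strand: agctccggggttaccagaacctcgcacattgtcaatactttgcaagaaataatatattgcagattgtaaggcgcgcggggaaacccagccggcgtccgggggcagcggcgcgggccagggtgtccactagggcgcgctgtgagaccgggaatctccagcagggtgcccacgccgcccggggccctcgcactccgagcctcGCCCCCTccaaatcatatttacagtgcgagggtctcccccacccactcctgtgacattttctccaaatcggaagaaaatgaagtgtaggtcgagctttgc

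The stretch of Gm19585 held 1 match each to the RUNX, ETS, E-box and C/EBP cores, and its G and C content was 42.3%. The stretch of Gm30728 held 1 match each to the GATA, RUNX and E-box cores and 1 CG dinucleotide in all. The stretch of Gm30392 held 1 ETS and 1 C/EBP match. The Gm13652 stretch differed in composition, with 59.7% G and C, 23 CG dinucleotides and 1 CTCF match. Over 1 full window for each of the 29 genes, the median G and C content was 44.7% (range 29.3% to 65.7%) and the median number of CG dinucleotides 2. Over all 32817 RefSeq windows these medians were 52.7% and 7.

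Some motif cores were more frequent in the 29 windows than in all windows, but the small number leaves wide intervals. The RUNX core stood in 11 of the 29 (37.9%, exact 95% interval 20.7 to 57.7), against 16.8% of all windows. The C/EBP core stood in 7 (24.1%, 10.3 to 43.5), against 10.8%, and the GATA core in 6 (20.7%, 7.99 to 39.7), against 11.2%. The E-box core was found in 6 windows (20.7%), against 16.3%, and the ETS core in 7 (24.1%), against 23.8%. CTCF and AP-1 cores stood in 2 windows each (6.90%), against 10.6% and 7.81%. For every core but that of RUNX, the interval of the 29 windows includes the share of all windows. No allowance was made for looking at 7 cores. The shares count full windows, also the parts outside the peak, and for Gm13470 only 16 bases lay inside it. The 29 windows were picked for overlapping a peak, which the windows of the comparison were not. Their G and C content was also lower, as given above. The part of either in these shares was not tested, so a higher share is not shown to be a trait of far starts. A core of a few letters is matched by many sequences that no factor binds, and these windows stand for the few gene-desert peaks with a RefSeq start, not for the rest.

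The next question was how well the name gene desert fits. By the list's own classes, 1535 of the 2117 peaks (72.5%, exact 95% interval 70.6 to 74.4) were intergenic and 563 (26.6%, 24.7 to 28.5) lay in an intron. Among nearer peaks 35.5% were intergenic and 41.9% intronic. The other gene-desert peaks were 11 in exons, 4 in 3' UTRs, 3 at transcription termination sites and 1 in a noncoding transcript. No gene-desert peak was in the promoter-TSS or 5' UTR class, which the distance rule leaves out by its construction.

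Set against the larger RefSeq gene table, the peaks fell into 5 places. Inside a protein-coding gene lay 616 (29.1%, exact 95% interval 27.2 to 31.1), inside another gene, such as an lncRNA gene, 178 (8.41%), and inside an antigen receptor gene array 139 (6.57%). A further 1000 (47.2%, 45.1 to 49.4) lay outside genes but within 250 kb of a gene body. Only 184 (8.69%, 7.53 to 9.97) had no gene body of this table within 250 kb, pseudogenes, tRNAs and receptor gene segments not counted. For the 1184 peaks outside arrays and genes, the median distance to the closest gene body of any kind was 74.4 kb, and 324 kb to the closest protein-coding one. Without a protein-coding gene body within 250 kb, and outside the arrays, were 1008 peaks (47.6%). With all genes of the table counted, the name gene desert therefore held in the strict sense for the 184 peaks, and with protein-coding genes alone for the 1008.

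**Figure D1:**
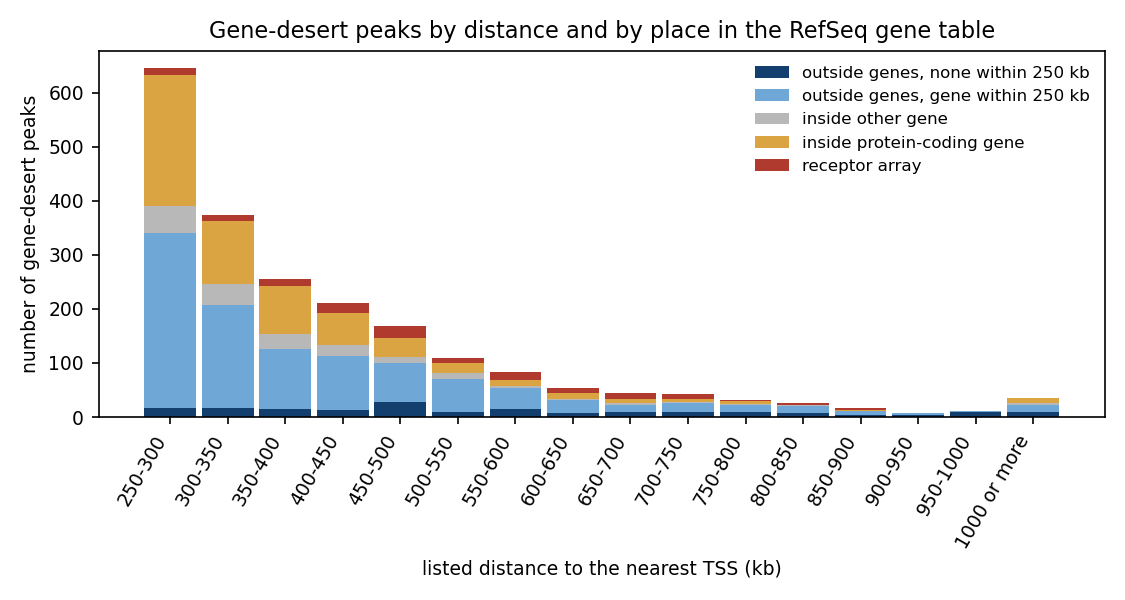
Number of gene-desert peaks (vertical axis) by listed distance to the nearest TSS in kb (horizontal axis, the last bar holds all from 1000 kb on), stacked by where the RefSeq gene table puts them. The bar from 250 to 300 kb holds 241 peaks inside protein-coding genes and 324 outside genes with a gene body within 250 kb. At 1000 kb or more lie 36 peaks.

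Distances ranged from 250.043 to 1769 kb, with a median of 356 kb and quartiles of 289 and 478 kb. Between 250 and 300 kb lay 645 peaks (30.5%), and 36 (1.70%) lay 1000 kb or more from a TSS. The share of intergenic peaks was 64.0% in the bin from 250 to 300 kb, 76.8% from 400 to 500 kb, 91.5% from 750 to 1000 kb and 86.1% at 1000 kb or more. Just inside the threshold stood peaks listed for Sec61b (250043 bp), 6030471H07Rik (250427 bp), 4930563F08Rik (250538 bp), 4930467E23Rik (250540 bp) and Hhipl2 (250563 bp). Just outside it stood Veph1 (249938 bp upstream), Gmds (249936 bp), Ccdc68 (249930 bp upstream), Thrb (249906 bp upstream) and Dgkb (249861 bp).

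The 10 peaks farthest from a TSS were listed for 6 genes. The farthest, on chromosome 2 (99236890 to 99237388), was 1769 kb downstream of the start of Lrrc4c, a synaptic adhesion gene, and its closest other peak was 1732 kb away. On chromosome 8, 4 peaks stood 1467 to 1658 kb upstream of Slc10a2, the bile acid transporter of the ileum, and 1 peak 1649 kb downstream of the start of Efnb2, an ephrin. A pair of those upstream of Slc10a2 (6762416 to 6762914 and 6763312 to 6763810) was 0.397 kb apart. The peaks listed for Rprl2 at 1606 and 1677 kb lay inside Naaladl2 in the RefSeq table. One peak each lay upstream of Pcdh17, a protocadherin (1526 kb), and of Cntnap5a, a contactin-associated protein (1520 kb). These 10 peaks were all intergenic in the list.

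Open sites were sparse this far from gene starts. The number of peaks per Mb of sequence was computed from the starts of curated genes of the RefSeq table, with repeats included, over the 19 autosomes between their first and last peak. It was 261 within 1 kb of a start, 54.4 from 1 to 10 kb, 43.9 from 10 to 50 kb, 30.0 from 50 to 100 kb and 17.2 from 100 to 250 kb. It was 7.37 from 250 to 500 kb, 3.67 from 500 to 1000 kb and 0.765 beyond 1000 kb, the last from 29 peaks in 37.9 Mb. In all, 390 Mb (16.3% of the sequence) lay 250 kb or more from such a start and held 5.54 peaks per Mb, against 44.3 per Mb of the nearer sequence. With protein-coding starts alone the values were 7.32 and 46.9 per Mb. Of the 2117 gene-desert peaks, 1616 (76.3%) were by these starts at least 250 kb from a curated start, and 1901 (89.8%) from a protein-coding one. Sequence to which reads cannot be aligned, such as assembly gaps, was not removed from these lengths. The strand was known for 19528 of the 26220 curated genes and for 16853 of the 21031 protein-coding ones. Genes without a strand counted with both ends as starts. The far lengths and the numbers of gene-desert peaks far from a start can therefore be too low.

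**Figure D2:**
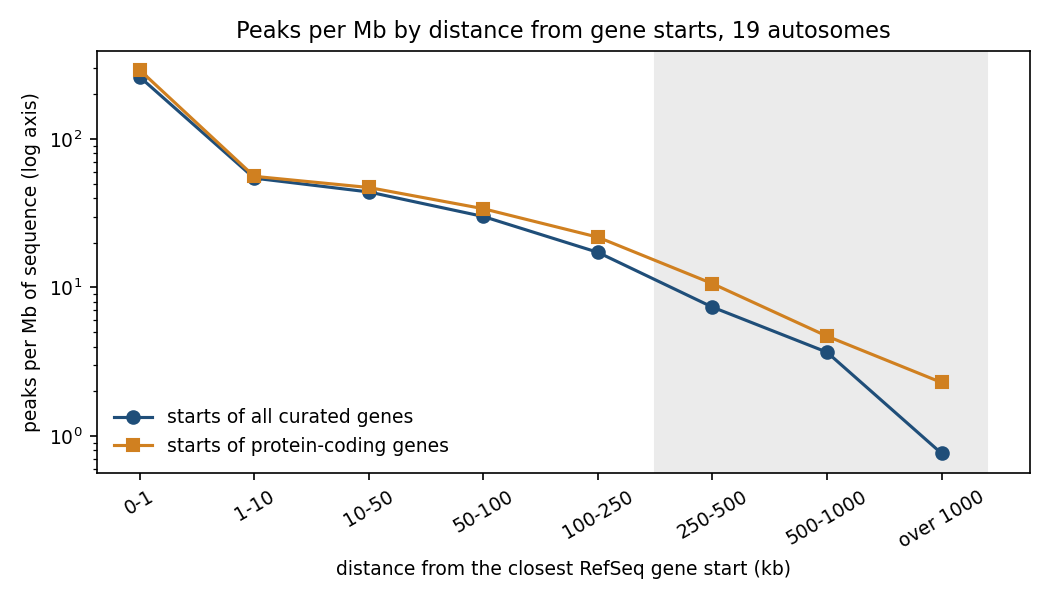
Peaks per Mb of sequence (vertical log axis) by distance from the closest RefSeq gene start in kb (horizontal axis), for the starts of all curated genes (circles) and of protein-coding genes (squares). The shaded bins start at 250 kb, where the value for all curated genes is 7.37 per Mb, and it is 0.765 per Mb beyond 1000 kb.

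Gene-desert peaks were also more isolated, a direction that the distance rule favours. The nearer peaks include 10378 of the promoter-TSS class and can have such a peak as a close neighbour. The rule leaves this out for gene-desert peaks. Its part in the contrast was not tested. The median gap to the closest other peak of the list was 12.4 kb (quartiles 4.00 and 39.6 kb), against 3.77 kb (1.20 and 8.82 kb) for nearer repeat-free peaks. Another peak lay within 10 kb for 936 of them (44.2%, exact 95% interval 42.1 to 46.4), against 78.1% (77.8 to 78.4) of the nearer peaks. The closest other peak lay over 100 kb away for 247 (11.7%, 10.3 to 13.1), against 0.689% of the nearer peaks. The share with a neighbour within 10 kb was 50.7% in the bin from 250 to 300 kb and 13.9% at 1000 kb or more. The 184 peaks with no gene body within 250 kb had a median gap of 38.2 kb, and the 616 inside protein-coding genes one of 10.2 kb.

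**Figure D3:**
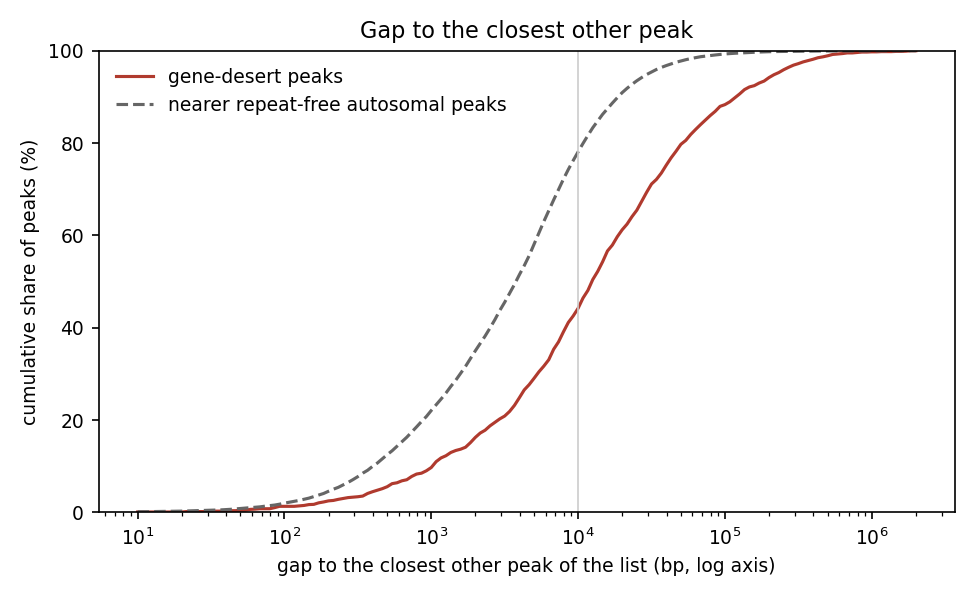
Cumulative share of peaks (vertical axis, %) by the gap to the closest other peak of the list in bp (horizontal log axis), for gene-desert peaks (solid) and nearer repeat-free autosomal peaks (dashed). At 10 kb (grey line) the curves stand at 44.2% and 78.1%.

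Even so, the peaks were unevenly spread. Cut wherever a nearer peak intervened, they formed 479 stretches, of which 135 (28.2%) held a single gene-desert peak, and the median was 3. The 54 stretches with 10 or more held 840 peaks (39.7%). Joined at gaps of at most 10 kb, 823 peaks (38.9%) fell into runs of 2 or more, and 16 runs held 5 or more. Chromosomes held between 0.448 peaks of this kind per Mb (chromosome 19) and 1.45 (chromosome 12), with a mean of 0.891 ± 0.288 (SD, n = 19 chromosomes). Outside the receptor arrays the highest value was 1.39 per Mb, on chromosome 13. Nearer peaks ranged from 23.4 per Mb on chromosome 14 to 43.1 on chromosome 11, and chromosome 11 held only 0.505 gene-desert peaks per Mb.

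The antigen receptor arrays held some of the longest of these stretches. They hold V segments, which B and T cells join to D or J segments by recombination, and the list does not take these segments as genes with a TSS. The kappa light chain array on chromosome 6 (67555636 to 70726754, with 168 segments) held 86 gene-desert peaks, the heavy chain array on chromosome 12 (113256204 to 116009954, with 215 segments) held 32 and the T cell receptor alpha and delta array on chromosome 14 (52427967 to 54224198, with 202 segments) held 21. In the list these carry the names of bystander genes. Rprl1, an RNase P-like RNA gene, has 45 of them, the pseudogene 4930515G16Rik 27 and Rpia, an enzyme of the pentose phosphate pathway, 14, all in the kappa array. Dad1, a subunit of the oligosaccharyltransferase next to the T cell receptor alpha genes, has 18, the microRNA genes Mir7094-2 and Mir6388 have 12 and 8, Adam6a has 8, Mir7094-1 4 and Olfr1507 3. The lambda, T cell receptor beta and T cell receptor gamma arrays held none at this distance, but 10, 47 and 12 peaks in all.

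Within the arrays the peaks sat on the gene segments. In the kappa array 67 of the 86 (77.9%, exact 95% interval 67.7 to 86.1) touched a V, J or C segment of the RefSeq table. In the heavy chain array 27 of 32 did (84.4%, 67.2 to 94.7), and in the alpha and delta array 16 of 21 (76.2%, 52.8 to 91.8). A peak of 499 bp placed at any position of the same arrays would touch a segment at 5.30%, 7.22% and 10.1% of the positions. All positions were counted, also those where a peak would be annotated as a repeat and left out by the rule. These shares are therefore no matched baseline. Without the distance rule, 82 of all 110 repeat-free peaks of the kappa array, 67 of 97 of the heavy chain array and 20 of 36 of the alpha and delta array touched a segment. In the arrays with no gene-desert peak these counts were 3 of 9 (lambda), 19 of 41 (T cell receptor beta) and 5 of 12 (T cell receptor gamma). V segments are related in sequence, and how reads that match several of them were placed is not given in the sources used here; its part in these counts was not tested.

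**Figure D4:**
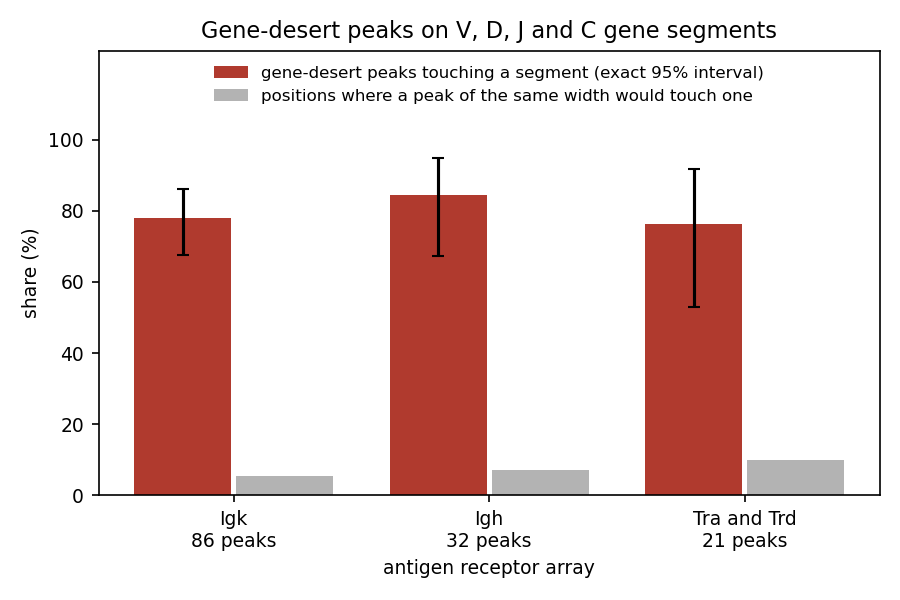
Share (vertical axis, %) of the gene-desert peaks of each antigen receptor array that touch a gene segment (red bars, with exact 95% intervals), beside the share of positions at which a peak of 499 bp would touch one (grey bars). The red bars stand at 77.9%, 84.4% and 76.2%, and the grey bars at 5.30%, 7.22% and 10.1%. The grey bars count all positions, also those in repeats.

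Long genes held the intronic peaks. The distance rule largely fixes this, since an intron lies no farther from the start of its host gene than the host is long. Of the 563, 542 had a host gene matched in the RefSeq table, and 136 host genes, with a median length of 642 kb, shared them. Only 23 lay in the intron numbered 1. For 242 (44.6%) the list named another gene than the host, because another TSS was closer. Wwox, which encodes an oxidoreductase and spans a fragile site, held the most, with 31, of which 20 were listed for Wwox itself and 11 for Maf. Smyd3, a lysine methyltransferase gene, followed with 18, Sugct, a mitochondrial CoA transferase gene, with 15, and Inpp4b, an inositol phosphate phosphatase gene, with 14. The synaptic genes Magi2, Nrxn3 and Ctnnd2 held 14, 13 and 12.

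The gene named as nearest often hid the host, also for transcription factors of blood cells. Tcf4, an E protein of B cell and dendritic cell development, held 8 intronic gene-desert peaks 259 to 281 kb from the nearest listed TSS, and 6 of the 8 were listed for Ccdc68. Nfia, a transcription factor known for a role in the erythroid and granulocytic choice of human progenitors, held 10, of which 8 were listed for Tm2d1. In Rad51b, a DNA repair gene, 9 of 10 were listed for 9430078K24Rik. All 8 in Utrn, the dystrophin relative, were listed for Utrn itself. These peaks lie inside annotated genes and are far from a TSS without being in a desert.

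The longest runs lay inside genes. Rad51b held 10 peaks within 42.3 kb on chromosome 12 (79604806 to 79647154), and Nfia 9 within 31.8 kb on chromosome 4 (98082417 to 98114230). The next run, of 7 peaks within 19.98 kb on chromosome 13 (83056029 to 83076003), was intergenic, listed for Mir3961, and its closest protein-coding gene was Mef2c. Runs of 6 lay in Itpr2, an intracellular calcium channel gene, in Diaph3, a formin gene, in Smyd3, and in the intergenic stretch of chromosome 15 (61400753 to 61429257) listed for D030024E09Rik. Among the runs of 5, the most compact was upstream of Trib2, within 8.37 kb on chromosome 12 (16133300 to 16141668).

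Outside arrays, the genes that led the list by number of gene-desert peaks stood beside large intergenic stretches or had long introns, which the distance rule largely requires. In all, 685 genes were named as nearest, 269 of them (39.3%) by a single peak, and the mean was 3.09 ± 3.46 (SD over genes). Above the tie at 10 peaks stood 23 genes with 378 peaks (17.9%), and 6 genes had exactly 10. Maf, a large Maf factor of T helper cells and macrophages, and Wwox had 20 each on chromosome 8. Of Maf's 20 peaks, 9 were intergenic and 11 in Wwox introns, and 19 lay downstream of the start, 262 to 617 kb away. A single one lay upstream, at 315 kb. The 19 downstream peaks and the 20 of Wwox formed a block of 39 over 702 kb (114743193 to 115444992). Smyd3 had 16, Sugct 15, Inpp4b 13 and Dlg2, a synaptic scaffold gene, 10, all in their own introns.

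Gene-desert peaks lay upstream of several signalling and transcription factor genes. Acvr2a, an activin receptor gene, had 19 peaks, all upstream, from 268 to 1348 kb. Zfp608, a zinc-finger gene, had 19 upstream, from 313 to 706 kb. Tbl1xr1, which encodes a subunit of a nuclear receptor corepressor complex, had 15 upstream at 255 to 852 kb. Trib2, a pseudokinase gene that can drive myeloid leukaemia in mice, had 11 upstream at 261 to 369 kb. Klf4, a factor of monocytes and epithelia, had 10 upstream in a pair of groups, 4 at 279 to 292 kb and 6 at 549 to 592 kb. Cblb, a ubiquitin ligase that restrains T cell activation, had 10 upstream at 264 to 594 kb. Zfp462, a chromatin regulator gene, had 11 upstream at 414 to 542 kb, Usp24, a deubiquitinase gene, 11 at 254 to 457 kb, and the noncoding 4930441H08Rik 10 at 409 to 667 kb. The noncoding 1700019E08Rik, in the same stretch of chromosome 2 as Acvr2a, had 12, 3 upstream and 9 downstream.

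Other genes had theirs downstream. Trps1, a GATA-type repressor gene, had 18 peaks downstream of its start, at 381 to 989 kb, and Adgrl2, a latrophilin gene, 14 at 444 to 734 kb. Inhba, the gene for an activin subunit, had 12 at 254 to 833 kb, Efna5, an ephrin gene, 12 at 254 to 792 kb, and Kcnj2, a potassium channel gene, 10 at 314 to 752 kb. Of all gene-desert peaks, 865 (40.9%, exact 95% interval 38.8 to 43.0) were upstream of the nearest TSS, against 41.9% of nearer peaks. Among intergenic peaks alone, the upstream share was 47.4% (44.8 to 49.9) of the gene-desert peaks and 67.0% (66.4 to 67.6) of the nearer ones. Close to a start the downstream side is gene body, which is not classed as intergenic, so the class itself favours upstream peaks there. Its part in the contrast was not tested. Protein-coding genes were nearest for 73.2% (71.2 to 75.05) of the gene-desert peaks, against 86.9% of nearer peaks, and noncoding RNA genes for 24.3%, against 12.2%.

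**Figure D5:**
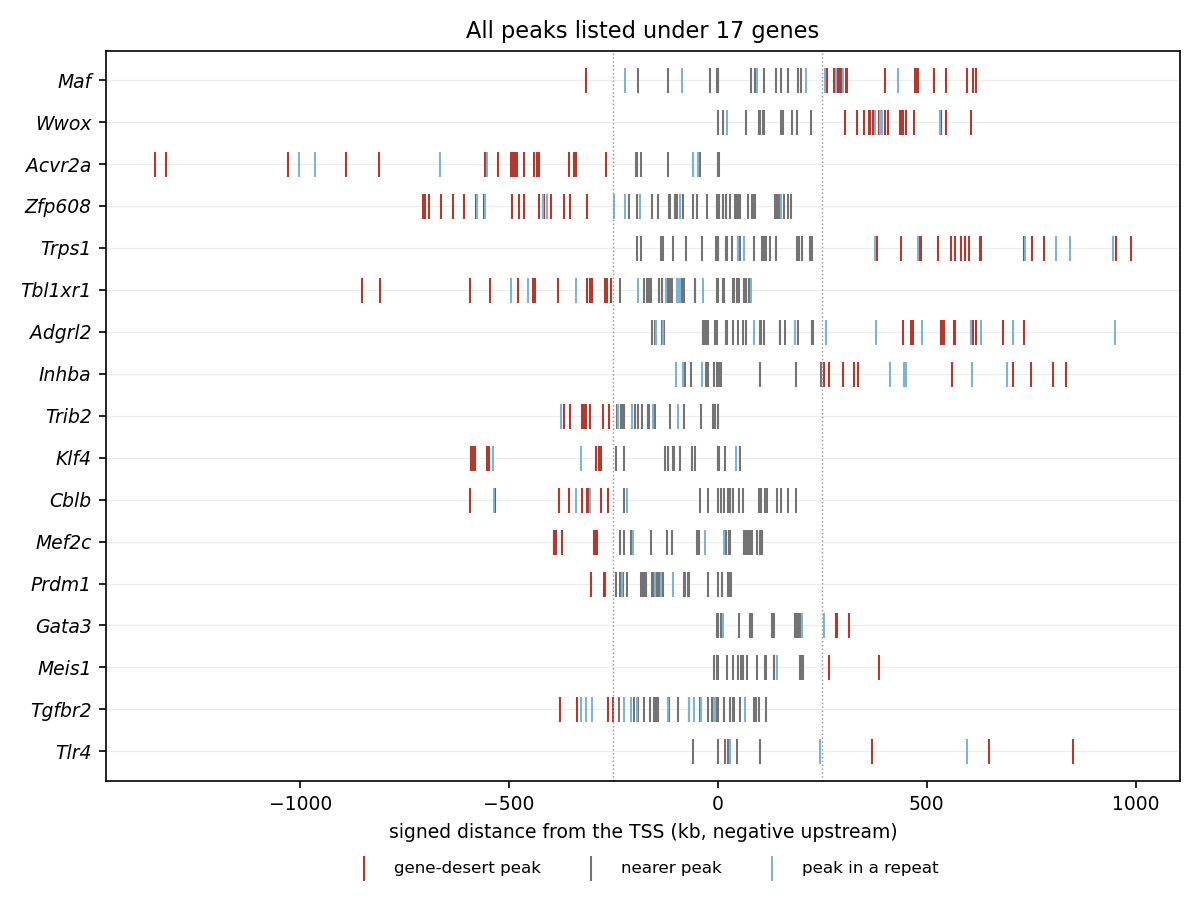
Every peak listed under each of the genes named on the vertical axis, by signed distance from the TSS in kb (horizontal axis, negative upstream), as gene-desert peaks, nearer peaks and peaks in repeats; dotted lines mark 250 kb on either side. Acvr2a and Tbl1xr1 have gene-desert peaks upstream, Trps1 and Adgrl2 downstream, and the 3 of Gata3 stand at 283 to 314 kb downstream.

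Among 66 transcription factor genes of blood development, 7 were named by 20 gene-desert peaks. These are 2.01% of the 993 repeat-free peaks of the list's genes (exact 95% interval 1.23 to 3.09), against 2.77% over all 76412 repeat-free autosomal peaks. Maf, with 20 gene-desert peaks, and Klf4, with 10, are not on this list, so the share depends on which genes were listed and does not stand for blood factors in general. Mef2c, a MADS-box factor of lymphoid progenitors, had 7 upstream, 4 at 372 to 392 kb and 3 at 289 to 296 kb. They join 11 of the 12 peaks listed for Mir3961 in a block of 18 over 266 kb of chromosome 13 (82949463 to 83215334). Prdm1, which encodes the plasma cell factor Blimp-1, had 4 upstream, 3 of them between 269.769 and 272 kb and 1 at 304 kb. Meis1, a homeobox factor of stem cells, had 2, at 265 and 387 kb downstream, and Tcf4 had 2 in its own name. Foxp1 and Tox had 1 each, at 323 kb downstream and 255 kb upstream.

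Gata3, the factor of T cell commitment, had 3 gene-desert peaks downstream of its start on chromosome 2. They lay at 283 kb (9595303 to 9595801), 284 kb (9593857 to 9594355) and 314 kb (9564461 to 9564959), so the first pair forms a close group and the last stands apart. A distal enhancer of Gata3 used in T and natural killer cell development is known downstream of the gene in mice. Whether it is one of these peaks was not examined.

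For other genes with known long-range enhancers the nearest-TSS names again hide the setting. No gene-desert peak was listed for Myc, Bcl11b, Id2, Sox4, Satb1, Gata2, Cebpa, Runx1 or Zeb2. Yet 16 lay within 1 Mb of the Myc gene body, 8 of them 542 to 584 kb away at lower coordinates and listed for D030024E09Rik, and 7 at 594 to 921 kb at higher coordinates, listed for H2afy3 and Gm20740. Near Bcl11b, a factor of T cell commitment, lay 6, 5 of them 727 to 899 kb away and listed for 4933406K04Rik. Near Id2, the E protein inhibitor, lay 15, with 9 at 293 to 379 kb listed for Gm17746. Near Satb1 lay 11, with 6 at 316 to 380 kb listed for Gm20098, and near Sox4 and Zeb2 8 each, from 320 and 295 kb on. Gata2, Cebpa and Runx1 had no gene-desert peak within 1 Mb, and their closest ones were 5067, 2224 and 3892 kb away. These windows were set after the list had been seen, and no contact between a peak and a gene was measured.

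Of 55 blood receptor and signalling genes, 3 were named, by 8 gene-desert peaks (1.495% of 535 repeat-free peaks, exact 95% interval 0.648 to 2.93). The share over all 76412 repeat-free autosomal peaks was 2.77%. Trib2 and Cblb, with 11 and 10, are not on this list. Tgfbr2, the type II TGF-beta receptor gene, had 4 upstream at 251, 263, 336 and 378 kb. Tlr4, the receptor for bacterial lipopolysaccharide, had 3 downstream at 370, 650 and 850 kb, and Cxcr4, the receptor that keeps progenitors in the marrow, had 1 at 283 kb upstream.

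The other lists hold genes of other tissues and housekeeping genes. Of 79 neuronal adhesion and synapse genes, 45 were named, by 150 gene-desert peaks (36.9% of their 407 repeat-free peaks, exact 95% interval 32.2 to 41.7). After Adgrl2 came the neurexin gene Nrxn3 with 12, the scaffold gene Magi2 with 9, and Ctnnd2, Ntm and Opcml, genes of catenin and IgLON adhesion proteins, with 7 each. In the introns of 29 genes of the list lay 110 gene-desert peaks. Of 68 developmental transcription factor genes, 16 were named, by 46 peaks (16.5% of 278, exact 95% interval 12.4 to 21.4). Sall3 and Sox6 had 9 each and Sall1 had 6, 528 to 637 kb upstream, which were all the peaks that Sall1 had. None was listed for 22 housekeeping genes, which have 82 nearer repeat-free peaks (0 of 82, with an exact upper bound of 4.40%). Over all 76412 repeat-free autosomal peaks the share was 2.77%, which lies below that upper bound. Only long genes or genes beside large intergenic stretches can have peaks this far away. The neuronal list holds very long genes, such as Ptprd (2271 kb) and Cntnap2 (2241 kb), so the distance rule itself favours a high share there. Its part was not tested. The shares rest on the genes chosen for each list and do not compare how open the loci are.

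CpG islands are the mostly unmethylated, GC-rich stretches typical of promoters. The list annotates 10 gene-desert peaks as CpG islands (0.472%, exact 95% interval 0.227 to 0.867), against 2.46% of nearer peaks. The nearer peaks include those at promoters, which the distance rule leaves out here, so the contrast is no trait of the gene-desert peaks. Of the 10, 3 lay on a RefSeq start that the list does not use, those of Gm26901, Gm13652 and Lsamp. A further 4 lay inside the protein-coding genes Naaladl2, Ptprd, Dlgap1 and Celf4, and the others were listed for 4930467E23Rik, Parp8 and Rps24. No gene-desert peak lay within 2 kb of a RefSeq microRNA hairpin, over the 2031 peaks on chromosomes in that table. The list itself uses microRNA genes such as Mir3961 as gene starts, so the distance rule all but fixes this outcome.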

How the data were processed

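The data are 1 deposited list of peaks for 14 ATAC-seq libraries of 7 cell types. Per the file header the authors annotated it with annotatePeaks on mm10; HOMER 4.10.2 is named in the submitters' processing notes. The aligner, caller, threshold and merging were not given in the sources used here. The deposited list gives positions and signed distances to the TSS in bp. Its deposited peak score is 0 throughout and entered no result. The peaks are numbered 1 to 92842 without a break and each spans 499 bp. Depth is unknown.

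The 2117 gene-desert peaks were set beside 74295 nearer repeat-free autosomal peaks. Genes, receptor segments and promoter windows came from RefSeq tables of GRCm38.p6, which shares the primary assembly of mm10; all 2117 listed gene identifiers matched. Genes with no strand in the tables counted with both ends as starts. Shares have exact Clopper-Pearson 95% intervals. No test was run. Sequence lengths by distance and gaps between peaks were computed with code tested on simulated data. The genes named are the 25 with the most peaks, with ties, the genes with a peak on both blood lists, the 10 farthest peaks, the 8 longest runs, the 5 peaks on each side of the threshold, and 10 genes known for long-range enhancers; other names were chosen after their values were seen. The members and the 5 gene lists were chosen with earlier results of these data known. No genome was used, so motifs were searched only in promoter windows. Alternatives were thresholds of 200 and 500 kb, repeats kept, X and Y kept, neighbour distances of 5 and 25 kb, protein-coding starts alone, and, chosen after seeing the data, leaving out arrays or gene bodies. Python 3.11.15, pandas 2.3.3, numpy 2.4.6, scipy 1.17.1 and matplotlib 3.10.9 were used.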

Additional observations from a re-analysis of the deposited data

Results flagged for a closer look

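Peaks that the rule leaves out for their place also lay far from a TSS. On the X chromosome 56 repeat-free peaks stood 250 kb or more from a TSS, 17 of them listed for Diaph2, a formin gene, and they were set aside only because the rule covers autosomes. On the autosomes 567 peaks at this distance lay in a repeat, 277 of them (48.9%) in LTR elements and 170 (30.0%) in LINEs. Repeats held 21.1% (exact 95% interval 19.6 to 22.7) of autosomal peaks at 250 kb or more, against 15.8% (15.5 to 16.02) of those nearer. The nearer peaks include those at gene starts, which seldom lay in a repeat. Within 1 kb of a curated RefSeq start, 15146 of 15321 peaks were repeat-free. From 10 to 50 kb 26913 of 33644 were, from 250 to 500 kb 1335 of 1669, and from 500 to 1000 kb 336 of 459. How far the peaks at gene starts account for the contrast was not tested.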

How the results depend on the processing

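No paired analysis was possible because the deposited list carries no value per library; for the same reason no replicate could be left out, and the search of central 200-base stretches was not run because no genome was used. With repeats kept, or X and Y kept, each of the 7 results stayed within its interval or within 1.5 times. At 200 kb, 68.2% of peaks were intergenic, 48.0% had a neighbour within 10 kb and the median gap was 10624 bp. At 500 kb there were 463 peaks of 175 genes, with 86.2% intergenic, 34.3% with a neighbour within 10 kb, a median gap of 21583 bp and 70.0% nearest to a protein-coding gene. A neighbour lay within 5 kb for 28.9% and within 25 kb for 65.3%. Both of the next settings were chosen after seeing the data. Without receptor arrays the protein-coding share was 76.1%. For the 1184 peaks outside arrays and gene bodies, 99.8% were intergenic, 48.1% upstream, 40.0% had a neighbour within 10 kb, the median gap was 15131 bp and the protein-coding share 75.4%. With protein-coding starts alone, peaks per Mb at 250 kb or more were 7.32. The neighbour distances and the protein-coding starts change the window and the starts counted; the other settings change which peaks are held. Depth is unknown, so a stretch without a peak is not shown to be closed.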
